A study of Mus musculus with 6 samples.

Results

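The 9 genes described here encode bone morphogenetic protein (BMP) ligands and their receptors. They were listed by name: the ligand genes Gdf5, Bmp2, Bmp4, Bmp6 and Bmp7 and the receptor genes Bmpr1a, Bmpr1b, Bmpr2 and Acvr1. All 9 were found among the 15771 protein-coding genes on the sequence covered, and 48 of the 84111 peaks of the deposited list had their midpoint in one of the gene bodies or within 10 kb of one. The study sequenced DNA pulled down by MBD2, a protein that binds methylated CpG (MBD-seq), in chondrocytes cultured from the knee joint cartilage of mice at postnatal days 3 to 5. Per the labels, 3 cultures were from Control mice (genotype Dnmt1 flox) and 3 from cKO mice (genotype Prx1-Cre;Dnmt1 flox/flox). Both groups thus carry a floxed allele of Dnmt1, the methyltransferase that restores CpG methylation after DNA replication, and the cKO mice add a Cre driven by the Prx1 promoter, which is active in limb mesenchyme. The labels do not say whether the control cultures carry 1 or both floxed alleles. The data hold no RNA, so the labelled cell type could not be checked against marker levels.

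BMPs are secreted dimers of the TGF-beta superfamily. They bind a complex of type I receptors (here Bmpr1a, Bmpr1b and Acvr1) and type II receptors (here Bmpr2), and the type II receptor activates the type I kinase, which phosphorylates Smad proteins that then enter the nucleus. In the limb this pathway drives the condensation of mesenchyme and the differentiation of chondrocytes, and Gdf5 marks and shapes the forming joints. Methyl-CpG capture pulls down DNA that is both methylated and dense enough in CpG, so a peak marks captured DNA. A stretch without peaks may be unmethylated or poor in CpG, or its capture may not have entered the list.

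One list of peaks was deposited for the whole series. It is named as regions of Dnmt1-mediated DNA methylation, and whether its peaks were selected on that ground cannot be told from it. Its peaks were called on 3 merged datasets whose group is not named, and no value of the list belongs to a single culture. Control and cKO were therefore not compared, no spread between cultures can be given with a value, and how deeply each culture was sequenced is unknown. For each peak the list gives a position, the fold enrichment and the −log10 q, both by the authors' peak caller. The read pileup at the summit and the background it was set against, both in reads, were recovered from the fold and the p-value (all 48 peaks matched a whole-number pileup). A background of 6.37 reads, the lowest in the list, was shared by 42 of the 48 peaks and by 74.98% of all peaks. At that background no peak in the list has a pileup under 43 reads or a fold under 5.97, so weaker capture would not appear. Intervals given with a fold are 95% exact Poisson intervals of its pileup. They cover counting error only, and reads that are PCR copies would make them too narrow.

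Of the 9 genes, 8 had a peak in the body, where 64.7% of all protein-coding genes had one, and the same 8 had one in the body or within 10 kb, where 81.7% did. The 9 genes are long (median 92.3 kb, against 18.6 kb over all protein-coding genes), and longer genes more often held a peak: 62.5% of genes about as long as Gdf5 had none in the body, and 0.639% of those about as long as Bmpr1b. Bmp7 held 15 body peaks, Acvr1 9, Bmp6 7, Bmpr1b 3, Gdf5 and Bmpr1a 2 each, Bmp2 and Bmp4 1 each, and Bmpr2 none. A further 8 peaks lay outside the bodies: 3 beside Bmp6, 3 beside Bmp7, 1 beside Bmpr1a and 1 beside Acvr1.

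**Figure D1:**
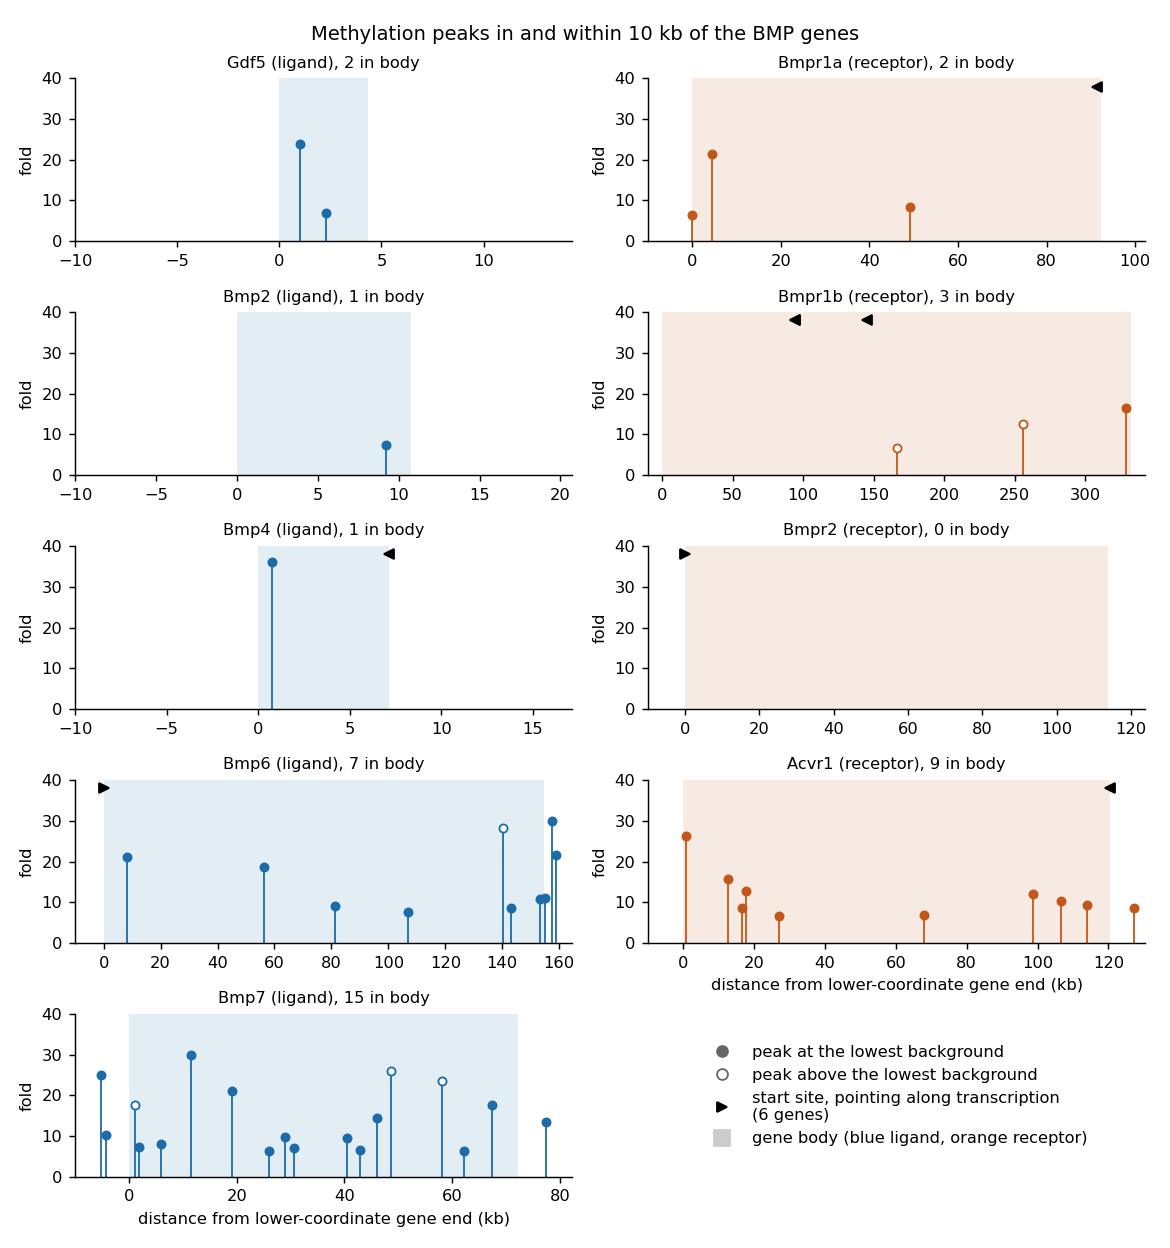
Peaks in and within 10 kb of each gene, placed by the distance of their midpoint from the gene end with the lower coordinate (kb, each panel on its own scale) and drawn to the height of their fold. Shading marks the gene body, filled points peaks at the lowest background, open points peaks above it, and black arrowheads the start sites of the 6 genes that have one in the promoter table; Bmp7 is crowded along its whole body and the Bmpr2 panel is empty.

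Among the ligands, Bmp7, which signals in skeletal and kidney development, carried most peaks. Its body (chromosome 2, 172868012 to 172940321, 72.3 kb) held 15 peaks, or 20.7 per 100 kb, and 6.69% of the body lay inside peaks. They were spread along the gene, with a median spacing of 4.05 kb and a largest spacing of 9.79 kb. The highest fold, 29.8 (95% interval 26.0 to 34.1), belonged to the peak at 172879189 to 172879688, which was 500 bp wide with 219 reads, and the lowest, 6.38, was shared by a peak of 104 bp and a peak of 57 bp with 46 reads each, 3 reads above the smallest pileup of the list at that background. The median fold was 9.90 (the peak at 172896914 to 172897166, 72 reads), and 4 of the 15 peaks reached a fold of 20. The widest peak (172916327 to 172916882, 556 bp) had the most reads, 336, over a raised background of 11.95 reads. The last 3 body peaks, from 172925856 upward, also lie inside the gene model Gm40010, which overlaps Bmp7. Beside the gene lay 2 peaks below it, with folds of 25.1 and 10.3, and 1 above it with a fold of 13.6. The peak with a fold of 25.1 lies inside the gene models 1700055K11Rik and Gm36254. No peak was within 1 kb of either end of the gene, but one at 172868902 to 172869381 lay 1.13 kb inside the lower end with a fold of 17.7 (215 reads over 11.2).

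Bmp6, a ligand known for its part in hypertrophic cartilage and in iron regulation, is the longest of the ligand genes (chromosome 13, 38345716 to 38500314, 154.6 kb). Its 7 body peaks amount to 4.53 per 100 kb and were unevenly placed, with a largest spacing of 48.0 kb and 3 of the 7 in the last 10% of its length. The first, 8.21 kb downstream of the start site (38353696 to 38354165), had 154 reads and a fold of 21.0, and the next, at 38401702 to 38402118, 137 reads and a fold of 18.7. Mid-gene peaks were weaker, at 38426837 to 38427010 (66 reads, fold 9.09) and 38452366 to 38452614 (55 reads, fold 7.60, the lowest in Bmp6). The highest fold, 28.2 (95% interval 25.3 to 31.4, 331 reads over 10.8), lay at 38485562 to 38486116. Between it and the 3′ end were peaks at 38488536 to 38488751 (63 reads, fold 8.68) and, 1224 bp from the end, at 38498906 to 38499274 (79 reads, fold 10.9). The stronger peaks of Bmp6 thus lay in its 5′ part and near its 3′ end. The 3 peaks beyond the 3′ end, at 310, 2828.5 and 4246.5 bp from it, had folds of 11.1, 29.98 and 21.7, and all 3 lie inside the neighbouring gene Txndc5. Capture beyond the 3′ end of Bmp6 thus cannot be told apart from capture in Txndc5. The body peak 1224 bp from that end lies in no other gene.

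The 3 short ligand genes had 1 or 2 peaks. Bmp4, required for limb and skeletal patterning, held 1 peak in its 7.14 kb (chromosome 14, 46383525 to 46390669), and this peak had the highest fold of all 48. It spans 579 bp at 46383983 to 46384561, with 265 reads and a fold of 36.1 (95% interval 31.9 to 40.7), above 95.6% of the peaks on chromosomes, and its midpoint lies 747 bp inside the 3′ end. Its interval overlaps that of the strongest Bmp7 peak (26.0 to 34.1) and not that of the strongest Gdf5 peak (20.5 to 27.7). These intervals cover counting error only and belong to peaks picked as the strongest of each gene. They thus do not show whether the genes differ. Gdf5, the joint ligand, held 2 peaks in 4.34 kb (chromosome 2, 155941023 to 155945367), which together cover 23.0% of the gene, the largest share among the 9. The stronger one was also the second widest of the 48, 904 bp at 155941600 to 155942503, with 175 reads and a fold of 23.9, and the weaker one was 96 bp at 155943249 to 155943344 with 50 reads and a fold of 6.92. Bmp2, a ligand of chondrocyte and bone differentiation, held 1 peak in 10.7 kb (chromosome 2, 133552159 to 133562896). That peak was 160 bp wide at 133561328 to 133561487, 1.49 kb inside the higher end, and weak, with 53 reads and a fold of 7.33 (95% interval 5.52 to 9.54).

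The flanks of these 3 genes were empty. The nearest peaks outside Bmp2 were 114.9 kb below and 57.4 kb above it, those outside Bmp4 39.9 and 36.9 kb away, and those outside Gdf5 31.6 and 25.4 kb away. The surroundings of the genes differed in peak number. In the 500 kb beyond the 10 kb flank on either side, 1 Mb in all, there were 119 peaks around Bmp7, 105 around Gdf5, 64 around Bmp6, 29 around Bmp4 and 18 around Bmp2. The density in the body was 1.74 times that of the surroundings for Bmp7 and 0.707 times for Bmp6; for the short genes this ratio (4.38 to 5.17) rests on 1 or 2 peaks.

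Among the receptors, Acvr1, the type I receptor also called ALK2, had the most peaks. Its body (chromosome 2, 58446438 to 58566828, 120.4 kb) held 9, or 7.48 per 100 kb, all at the lowest background. The strongest lay at the 3′ end, 758.5 bp inside it (58446932 to 58447461, 530 bp, 192 reads, fold 26.2 with a 95% interval of 22.6 to 30.1). Towards the 5′ end came peaks at 58458714 to 58459125 (fold 15.7, 115 reads), 58462919 to 58463244 (fold 8.68, 63 reads) and 58463863 to 58464237 (fold 12.8, 93 reads) and then the weakest of the gene (58473279 to 58473423, 48 reads, fold 6.65), followed by a stretch of 41.1 kb without a peak. Beyond it the next peak had 50 reads (58514453 to 58514546, fold 6.92). The 3 peaks from there to the start site had folds of 11.9 (58544941 to 58545211, 87 reads), 10.2 (58552798 to 58553052, 74 reads) and 9.36 (58560192 to 58560496, 68 reads), all below the list median of 13.2. The peak 6.81 kb upstream of the gene (58573545 to 58573725, fold 8.68) is inside Upp2. There were 37 peaks in the 1 Mb around Acvr1, so its body was 2.02 times as dense as its surroundings.

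Bmpr1a, the type I receptor with a broad role in chondrogenesis, held 2 peaks in 92.3 kb (chromosome 14, 34411061 to 34503336). One of 424 bp at 34415217 to 34415640, 4367.5 bp from the 3′ end, had 157 reads and a fold of 21.4. The other, mid-gene at 34460164 to 34460368, had 61 reads and a fold of 8.41. One more peak lay 87 bp beyond the 3′ end (34410917 to 34411031, 115 bp) with 47 reads and a fold of 6.51. These 3 leave the 5′ part of the gene empty, and the body density, 2.17 per 100 kb, was 0.452 times that of the 1 Mb around it.

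Bmpr1b, the type I receptor through which Gdf5 acts in cartilage, is the longest of the 9 genes (chromosome 3, 141837135 to 142169585, 332.5 kb) and held 3 peaks, 0.902 per 100 kb. The 1 Mb around it held 17 peaks, the fewest among the 9 genes, and its body was 0.531 times as dense as these surroundings. Of its 3 body peaks the first lay in the middle of the gene, 49.97% of its length from the 5′ end, and the others nearer the 5′ end. The 166.3 kb from the 3′ end to the first of them held none, and this empty stretch contains all 3 start sites that the promoter table gives for Bmpr1b. The first of these peaks was the widest of the 48, 1275 bp at 142002818 to 142004092 (wider than 98.3% of the peaks on chromosomes). It also had the largest pileup, 642 reads, but over a background of 96.6 reads, 15.2 times the lowest, so that its fold was only 6.59 (95% interval 6.09 to 7.12). The second (142092594 to 142092919) had 206 reads over a raised background of 15.6, a fold of 12.4, and the third (142165490 to 142165889) 120 reads over the lowest, a fold of 16.4. What gave the raised background was not tested.

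Bmpr2, the type II receptor, had no peak in its 113.8 kb (chromosome 1, 59764279 to 59878081) and none within 10 kb. The nearest peaks were weak to moderate ones 137.4 kb below it (59626800 to 59626967, fold 8.004) and 71.1 kb above it (59948989 to 59949334, fold 15.1). Between their midpoints 322.3 kb held no peak. Of the 6926 intervals between neighbouring peaks on chromosome 1, 14 were at least as long. Of the 83952 on the chromosomes analysed here 118 were (0.141%), against a median interval of 9.03 kb. The interval was looked up because it holds an empty gene of 113.8 kb, so it had to exceed that median. The share counts intervals and not the sequence they cover, so it does not measure how rare such a location is. The 1 Mb around Bmpr2 beyond 10 kb held 30 peaks.

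Each gene was next set beside the other protein-coding genes whose length is within 25% of its own, since longer genes hold more peaks. Bmp7 had more body peaks than 95.8% of 1424 such genes, whose median was 3, and 3.44% had more. Gdf5, with 2 peaks, was above 89.1% of 1233 genes of similar length, and 2.03% had more. Acvr1 (9 peaks, median 5) was above 70.2% and Bmp6 (7, median 6) above 53.7%. Bmp4 was above the 50.4% of its class that held no peak, and Bmp2 sat at its median of 1. Below the median in body peaks were 3 genes, all receptors. Bmpr1a (2, median 4) had fewer peaks than 65.3% of 1271 genes, and Bmpr1b (3, median 8) fewer than 85.9% of 313. Bmpr2 belonged to the 66 genes among 1065 (6.20%) with an empty body, and to the 44 (4.13%) that were also empty over 10 kb on both sides. With the 10 kb flanks counted, the ligands Bmp2 and Bmp4 also fell below, with 1 peak each against a median of 2. Gdf5 (2, median 1) was then above only 52.3%, and 31.1% had more. Bmp7 was above 96.5%, Acvr1 above 70.2% and Bmp6 above 64.8%. Bmpr1a (3, median 5) and Bmpr1b (3, median 9) stayed below.

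**Figure D2:**
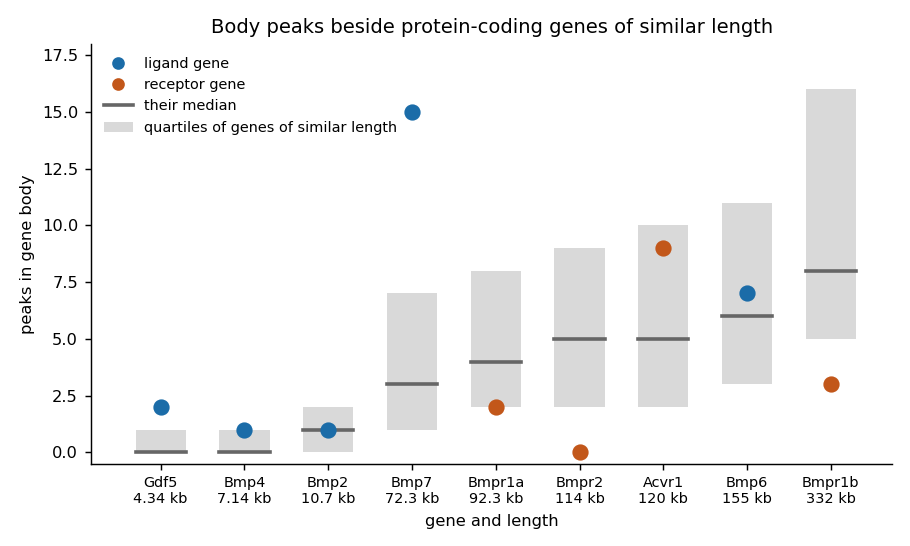
Number of peaks in the body of each gene (points, blue for ligands and orange for receptors), ordered by gene length, beside the quartiles (grey bars) and the median (dark lines) of protein-coding genes within 25% of its length. Bmp7 with 15 and Gdf5 with 2 stand above their bars, and Bmpr2 with 0 and Bmpr1b with 3 stand below theirs.

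As groups, the 5 ligand genes held 26 peaks in 249.1 kb of body (10.4 per 100 kb) and the 4 receptor genes 14 in 658.9 kb (2.12 per 100 kb), against 5.62 per 100 kb over all protein-coding bodies. Peaks took up 3.62% of ligand and 0.811% of receptor sequence, against 2.48% over all protein-coding bodies. Added up over the genes of similar length, mean counts came to 15.5 for the ligands and 31.5 for the receptors, so the ligands held 1.67 times and the receptors 0.445 times that mean. Against the sum of the medians, 10 and 22, these were 2.60 and 0.636 times. Single genes carry much of this. Without Bmp7 the other ligands held 11 peaks, 6.22 per 100 kb and 1.02 times the mean of genes of similar length (1.57 times the sum of their medians), and without Acvr1 the other receptors held 5, 0.928 per 100 kb and 0.203 times the mean (0.294 times the medians). The groups are few genes chosen by name and their ranges overlap: Bmp6, a ligand, had 4.53 per 100 kb and Acvr1, a receptor, 7.48. The surroundings differed as well. In the 1 Mb around each ligand gene there were 119 (Bmp7), 105 (Gdf5), 64 (Bmp6), 29 (Bmp4) and 18 (Bmp2) peaks. Around the receptor genes there were 48 (Bmpr1a), 37 (Acvr1), 30 (Bmpr2) and 17 (Bmpr1b). Whether the difference in density belongs to the genes or to their regions was not tested. Genes are not replicates, so no test was made.

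The strength of the peaks did not separate ligands from receptors in the way their number did. The median fold was 10.4 over the 26 ligand peaks (quartiles 7.39 and 21.0) and 11.1 over the 14 receptor peaks (8.48 and 15.0), both under the 13.7 of all peaks in protein-coding bodies. The ranges overlapped widely, from 6.38 to 36.1 in ligands and from 6.59 to 26.2 in receptors. Median widths were 343.5 and 326 bp, against 393 bp. A fold of at least 20 was reached by 8 ligand peaks (30.8%) and 2 receptor peaks (14.3%), where 30.9% of all peaks in protein-coding bodies reached it. The lowest background underlay 22 of 26 ligand peaks (84.6%) and 12 of 14 receptor peaks (85.7%), close to the 85.1% of all peaks in protein-coding bodies. Which group had the higher median fold depended on the weak peaks. Among peaks with a −log10 q of at least 50 (13 ligand and 8 receptor peaks) the ligand median was 6.78 above that of the receptors.

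**Figure D3:**
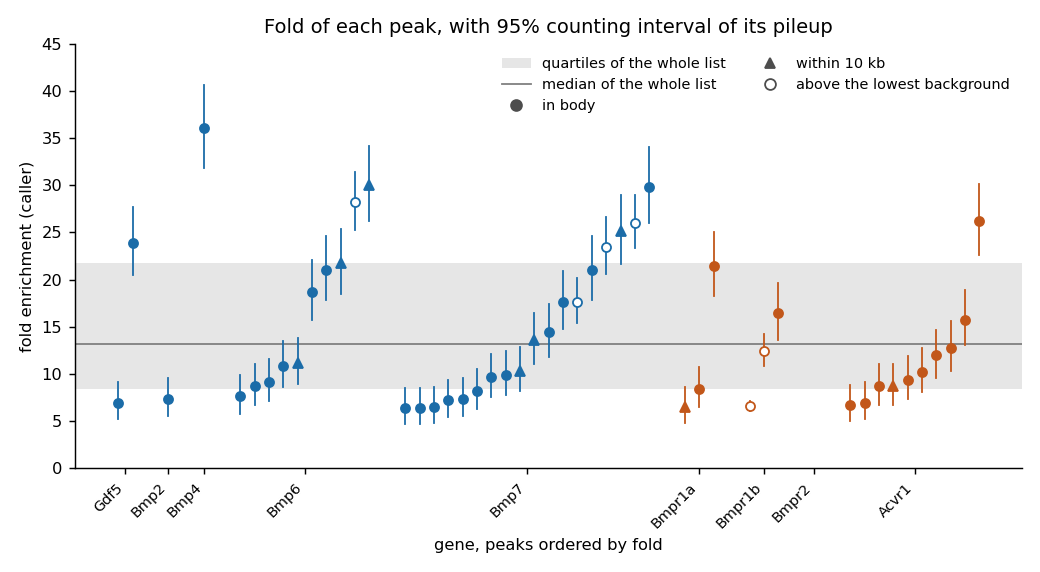
Fold enrichment of each of the 48 peaks, ordered within each gene, with the 95% counting interval of its pileup; circles are body peaks, triangles peaks within 10 kb, open symbols peaks above the lowest background, and the grey band and line the quartiles and median of the whole list. Most peaks of Acvr1 lie under the list median of 13.2, those of Bmp7 lie on both sides of it, and the single Bmp4 peak stands highest at 36.1.

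Start sites and strand were taken from a RefSeq promoter table (GRCm38.p6), which gave 8 start sites for 6 of the genes (Bmp4, Bmp6, Bmpr1a, Bmpr1b, Bmpr2 and Acvr1). Gdf5, Bmp2 and Bmp7 were not matched. The 3 Bmpr1b sites lie inside the gene, and its 5′ end (142169585) has no entry. None of the 8 windows, from 250 bases before a start site to 50 after it, was overlapped by a peak, and no peak midpoint lay within 1 kb of a start site in any of the 6 genes. Over the 12547 protein-coding genes with an entry, 7.81% had one within 1 kb. The CpG content of the windows ranged widely, and the following 250 bases upstream of a start site are shown because they span that range while none holds a peak. They are written 5′ to 3′ on the coding strand with each CpG in capitals: Acvr1 (chr2:58566829-58567078, minus strand, 46 CpG), Bmpr2 (chr1:59764029-59764278, plus strand, 22 CpG), Bmp4 (chr14:46390670-46390919, minus strand, 11 CpG) and the start site of Bmpr1b nearest to a peak (chr3:141982265-141982514, minus strand, 1 CpG).
Acvr1: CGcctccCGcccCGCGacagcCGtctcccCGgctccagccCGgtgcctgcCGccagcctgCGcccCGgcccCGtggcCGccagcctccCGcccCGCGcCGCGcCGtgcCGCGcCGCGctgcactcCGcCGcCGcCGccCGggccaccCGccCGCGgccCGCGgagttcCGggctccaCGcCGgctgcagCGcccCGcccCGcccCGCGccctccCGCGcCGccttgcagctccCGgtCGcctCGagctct
Bmpr2: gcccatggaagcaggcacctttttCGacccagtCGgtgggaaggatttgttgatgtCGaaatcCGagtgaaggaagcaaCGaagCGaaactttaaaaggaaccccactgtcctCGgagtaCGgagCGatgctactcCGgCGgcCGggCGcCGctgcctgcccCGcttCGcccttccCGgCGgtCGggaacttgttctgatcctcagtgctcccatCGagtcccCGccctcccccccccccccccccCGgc
Bmp4: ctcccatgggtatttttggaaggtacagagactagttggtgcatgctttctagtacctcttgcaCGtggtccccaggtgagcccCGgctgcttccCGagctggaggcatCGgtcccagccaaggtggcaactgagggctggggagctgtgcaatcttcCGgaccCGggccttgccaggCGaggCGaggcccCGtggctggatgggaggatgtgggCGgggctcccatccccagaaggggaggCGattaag
Bmpr1b: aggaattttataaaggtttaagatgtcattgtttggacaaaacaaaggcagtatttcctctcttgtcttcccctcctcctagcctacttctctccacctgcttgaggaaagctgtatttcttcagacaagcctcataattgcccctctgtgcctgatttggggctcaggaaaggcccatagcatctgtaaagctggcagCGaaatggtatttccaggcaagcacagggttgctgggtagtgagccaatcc

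The letters searched were CG, which read the same on both strands. At least 1 CG stood in the 250 upstream bases of 94.4% of the 15401 protein-coding start sites. The median was 11 and the quartiles were 3 and 20. Among them the Acvr1 site is CpG-rich and the Bmpr1b site shown is CpG-poor. In the 300-base windows, Acvr1 had 51 CG and Bmpr1a 48, more than 98.99% and 98.3% of other start sites; Bmp6 had 27, Bmpr2 23, Bmp4 12 and the Bmpr1b sites 5 or 6. Over all start sites a peak overlapped the window in 2.96%. This share depended on CpG number: it was 1.63% with 0 to 4 CG, 8.90% with 5 to 9, 4.30% with 10 to 19, 1.20% with 20 to 29, 0.462% with 30 to 39 and 0.344% with 40 or more. The sites of Acvr1 and Bmpr1a thus belong to the class of start sites where peaks were rarest. The listed Bmpr1b sites, which lie inside the gene, belong to the class where they were most frequent. The nearest peak to a start site was 6.397 kb away for Bmp4, 6.48 kb for Acvr1, 8.21 kb for Bmp6, 21.0 kb for Bmpr1a, 21.2 kb for the nearest Bmpr1b site and 137.4 kb for Bmpr2, against a median of 8.20 kb over all start sites. The 5′ end of Bmpr1b, which has no entry, lay 3.90 kb from a peak. The Bmpr2 start site was farther from a peak than 99.9% of the others.

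**Figure D4:**
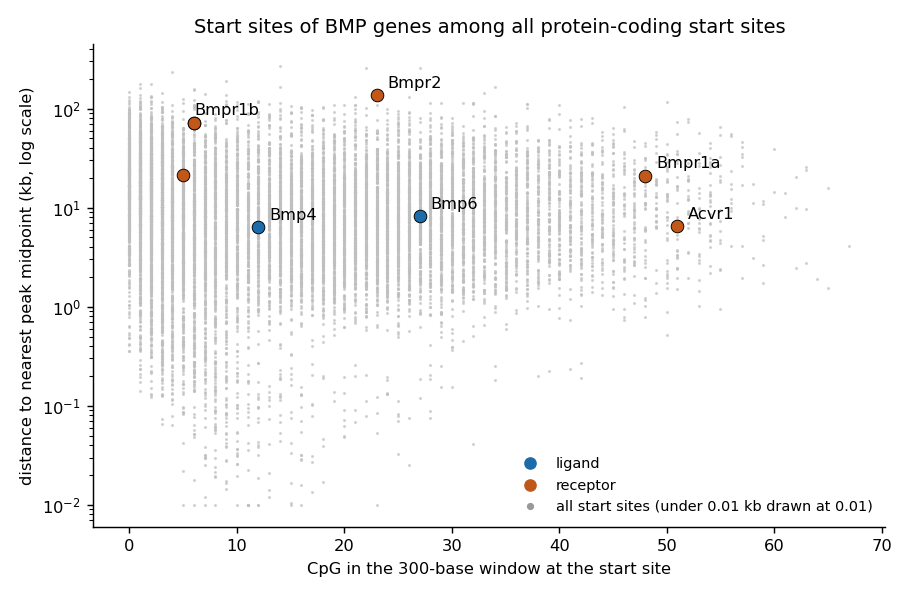
Number of CpG in the 300-base window at each start site against the distance to the nearest peak midpoint (kb, log scale), for all 15401 protein-coding start sites (grey) and the 8 start sites of the BMP genes (blue ligands, orange receptors). The Bmpr2 site, 137.4 kb from a peak, lies at the upper edge, and those of Acvr1, Bmp4 and Bmp6 lie near the middle.

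The other end of the genes looked different. A peak midpoint lay within 1 kb of the 3′ end in 4 of the 6 genes with strand, where 16.9% of the 12547 genes had one. These were Acvr1 (fold 26.2) and Bmp4 (36.1) inside the gene and Bmp6 (11.1) and Bmpr1a (6.51) just beyond it. The Bmp6 peak is the one inside Txndc5; without peaks that lie in another gene, 3 of the 6 remained, a setting added after seeing the data and not applied to all genes. With a window of 2 kb the same 4 genes had a peak, where 29.8% of all genes did. Bmpr1b and Bmpr2 had none. Gdf5, Bmp2 and Bmp7, without strand here, had a peak 1.03, 1.49 and 1.13 kb inside the nearer gene end. Counting either end of all 9 genes, 4 had a peak within 1 kb, where 21.8% of protein-coding genes had one. In the 2980 protein-coding genes of at least 50 kb with strand, the share of body peaks rose from 6.50% in the first 10% of the gene, at the 5′ end, to 17.8% in the last 10%, at the 3′ end. In the 5 BMP genes among them, 5 of 21 body peaks were in the last 10% and 3 in the first, with 1 to 3 in each bin between and no steady rise.

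**Figure D5:**
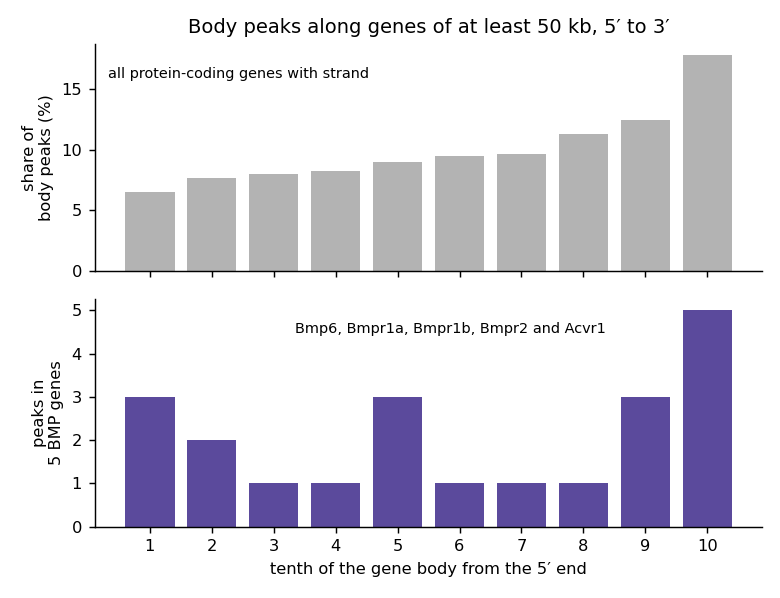
Body peaks in 10 equal bins along the gene from the 5′ to the 3′ end, as a share (%) in the 2980 protein-coding genes of at least 50 kb with strand (upper bars) and as a number in Bmp6, Bmpr1a, Bmpr1b, Bmpr2 and Acvr1 together (lower bars, 21 peaks). The upper share climbs from 6.50% to 17.8%, and the lower bars are highest in the last bin with 5 peaks.

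Other genes of the pathway were described from a list by role. Of its 50 genes, 43 lay on covered sequence, and 30 of these (69.8%) had a body peak, against the 64.7% of all protein-coding genes given above. Of the other ligands 8 of 10 had one; Bmp8a had the most, 6 peaks in 30.6 kb, and Gdf6 and Gdf7 had none. Of the other receptors and coreceptors 6 of 8 had one. Acvr1b, an activin type I receptor, held 10 in 39.6 kb, whereas Acvr2a, a type II receptor that BMPs share with activins, had none in 89.2 kb or within 10 kb, like Bmpr2. Among secreted antagonists 7 of 10 had a body peak, with most in Twsg1 (5) and none in Nog, Sost or Sostdc1. The latter are short (1.92, 4.56 and 4.28 kb), and each had a peak within 10 kb. Among Smads and their regulators 5 of 6 had one; Smad9, a receptor-activated Smad, held 10 peaks in 46.2 kb and the ubiquitin ligase gene Smurf2 none in its body of 100.7 kb. Target genes, with a median length of 4.09 kb, had one in 4 of 9. Id1, Id2, Id3 and Id4, immediate targets of BMP signalling, and Msx2 had none, and Runx2 had most with 6 in 318.8 kb. Empty bodies are common in short genes: 62.5% of genes about as long as Gdf5 (4.34 kb) had no body peak.

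A peak within 1 kb of a gene end was present in 13 of the 43 (30.2%), where 21.8% of protein-coding genes had one. The highest folds among them were 42.7 at Smurf1 (314 reads), 38.1 at Bmp10 (280 reads), 35.0 at Gdf2 (257 reads) and 24.8 at Eng (182 reads), a coreceptor of endothelial cells. The others were at Twsg1 (23.7), Acvr1b (23.5), Hjv (18.04), Nbl1 (17.0), Dlx5 (16.4), Hey1 (9.09), Msx1 (8.26), Smad5 (7.87) and Sostdc1 (6.78). In the 29 of the 43 that have strand, a peak lay within 1 kb of a start site at Bmp10, Gdf2 and Eng and within 1 kb of the 3′ end at 8 genes. Over the 12547 protein-coding genes with strand these shares were 7.81% and 16.9%. A peak overlapped a start-site window itself at Bmp10 and Eng, where 3.43% of the 12547 genes had such an overlap. None of the 6 BMP genes with a window had one, but with so low a share 6 genes are too few to show a difference.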

How the data were processed

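MBD-seq was made of 6 chondrocyte cultures, 3 per group, and 1 peak list was used. Per the submitters' processing notes, fastp, Bowtie2 and MACS2 were used with the build mm10 or GRCm38; versions and roles are not given in the sources used here. Per the peak names, 3 datasets were merged before peaks were called. The fold enrichment is deposited as a ratio, read pileup over background. A −log10 p and a −log10 q were deposited for every peak. The score deposited beside them equals the −log10 q times 10 without its decimals. Positions were deposited with the start counted from 0 and are printed from 1. The list held 84111 complete lines, and its last peak on chromosome 6 ends at position 88818859. There 1 incomplete last line was left out, and peaks on chromosomes 7, 8, 9, X or Y are not analysed here. Shares over all peaks, genes or start sites thus cover only the sequence in the list and not the whole genome.

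Genes came from a RefSeq table (GRCm38.p6); those starting in the first 3 Mb of a chromosome, or ending past the last peak of chromosome 6, were left out. Exons and introns were not analysed here. Peaks were placed by midpoint. Pileup n and background b solve fold = (n + 1)/(b + 1) with p as the Poisson probability of more than n reads, accepted within 1% of the step between whole pileups (99.97% of peaks; 25 failed); the solver was tested on simulated data. Python 3.11.15, NumPy 2.4.6, pandas 2.3.3 and SciPy 1.17.1 were used. The planned fit of Control against cKO had no values to run on, so nothing was tested. Named were all 9 genes, their peaks (of genes with over 10 peaks the highest, median, lowest and widest and those at gene ends, plus further Bmp7 peaks chosen after their values were seen), other pathway genes with a gene-end peak, and the gene with most peaks in each role; pathway genes without peaks were named after their values were seen. The genes and lists were chosen with earlier results of these data known.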

Additional observations from a re-analysis of the deposited data

How the results depend on the processing

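No paired analysis was possible because peak values exist only for merged cultures, which also leaves no replicate to omit. A value counts as moved here when it changes by more than 1.5 times. The number of peaks in or within 10 kb of the 9 genes (48) was 45 and 54 with flanks of 5 and 20 kb, 48 by summit or by overlap of 1 bp, 46 after merging within 500 bp and 42 at the lowest background; filters moved it by construction, to 27 for a −log10 q from 50 upward, 19 from 100 upward, 20 at or above the median fold and 6 above the lowest background. The ligand minus receptor density (8.31 peaks per 100 kb) stayed positive under all 11 alternatives: 4.004 for a −log10 q from 50 upward, 3.66 from 100 upward, 4.21 at or above the median fold, 1.30 above the lowest background, 5.29 without Bmp7 and Acvr1 and 4.10 without Bmp7 alone, the last added after seeing the data, as were Bmpr1b left out (7.07) and the background filters for the other results. By body peaks, 5 of the 9 genes were above the median of genes of similar length. This was 3 for a −log10 q from 100 upward and at or above the median fold, and 1 above the lowest background. It was 4 to 6 under the other alternatives, protein-coding or all genes and lengths within 10% or 50% included. The median fold of ligands minus receptors (-0.678) reversed to 6.78 for a −log10 q from 50 upward (13 ligand and 8 receptor peaks). It reversed to 7.05 from 100 upward (11 and 5) and 3.32 at or above the median fold (12 and 4). Above the lowest background it was 15.2, which, like the density of 1.30, rests on 4 ligand and 2 receptor peaks. The difference in median fold kept its sign at -0.203 after merging and -1.70 at the lowest background. Gene-end peaks in 13 pathway genes became 20 with a window of 2 kb and 7 with 500 bp. The 2 kb window at 3′ ends and the sums of medians were also added later. The depth of each culture is unknown, and capture under the list's threshold cannot be seen.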
